A study of Mus musculus with 188 samples.

Results

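The transforming growth factor beta (TGF-beta) pathway of the mouse aorta was followed through the ligand genes Tgfb1, Tgfb2 and Tgfb3, the latency gene Ltbp1, the receptor genes Tgfbr1, Tgfbr2 and Tgfbr3, the signal transducer gene Smad3 and the inhibitor genes Smad6 and Smad7. Every probe set annotated to a single one of these 10 symbols was taken, whatever its values. This gave 14 probe sets out of the 22327 tested and covered 9 of 11725 named genes. Tgfb2 had no probe set of this kind and was not analysed here beyond its promoter sequence. The samples were aortas of untreated, wild-type male mice aged 16 weeks that had been fed chow, from a panel of 94 inbred and recombinant inbred strains measured on Affymetrix HT_MG-430A arrays. The AXB/BXA family (28 strains, 59 arrays) descends from A/J and C57BL/6J, the BXD family (28 strains, 53 arrays) from DBA/2J and C57BL/6J, and the BXH family (10 strains, 21 arrays) from C3H/HeJ and C57BL/6J. A further 28 inbred strains (55 arrays) include these 4 parents. BXD24/TyJ-Cep290<rd16>/J and BXD29-Tlr4<lps-2J>/J carry the alleles written in their names. Most strains (79) had 2 arrays, and the labels do not say whether they hold separate animals, pools or repeats of 1 extract. P-values therefore reflect array-to-array spread within a strain, part or all of which may be technical. Values are log2 expression values from robust multi-array averaging (RMA), the form in which the table was deposited. Array medians lay between 4.55 and 4.88.

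TGF-beta ligands are secreted in a latent form, in which the ligand is held by its own propeptide and by a latent TGF-beta binding protein such as the product of Ltbp1, and are anchored to fibrillin-rich matrix until they are activated. Active ligand brings together the type II receptor (Tgfbr2) and the type I receptor (Tgfbr1), with betaglycan (Tgfbr3) as a co-receptor that presents ligand, and the type I receptor phosphorylates SMAD2 and SMAD3. SMAD6 and SMAD7 are inhibitory SMADs whose genes are themselves switched on by signalling of this superfamily. In humans, mutations of TGFBR1, TGFBR2, SMAD3, TGFB2 and TGFB3 cause inherited aortic aneurysm of the Loeys-Dietz group.

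Promoters are shown first for 4 of the 5 genes with a called strain effect, to place these genes in the genome. The fifth is Tgfb3. Each is the 250 bases before an annotated transcription start in RefSeq's table for build GRCm38.p6, read 5′ to 3′ on the gene's strand. Capitals mark the CAGAC box, a short sequence to which SMAD3 and SMAD4 can bind, written CAGAC on the strand shown or GTCTG where it lies on the opposite strand.
Tgfbr2, chr9:116175364-116175613, minus strand: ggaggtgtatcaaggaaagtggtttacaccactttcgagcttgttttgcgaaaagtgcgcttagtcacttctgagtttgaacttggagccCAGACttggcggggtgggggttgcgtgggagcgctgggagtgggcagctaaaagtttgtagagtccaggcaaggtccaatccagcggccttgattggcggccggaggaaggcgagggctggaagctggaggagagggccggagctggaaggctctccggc
Smad6, chr9:64022060-64022309, minus strand: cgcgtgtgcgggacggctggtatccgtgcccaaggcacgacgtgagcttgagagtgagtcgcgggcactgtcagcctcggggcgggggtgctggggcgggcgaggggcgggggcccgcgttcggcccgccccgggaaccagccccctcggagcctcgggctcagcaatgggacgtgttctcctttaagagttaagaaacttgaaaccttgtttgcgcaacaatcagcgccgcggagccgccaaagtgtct
Ltbp1, chr17:75005279-75005528, plus strand: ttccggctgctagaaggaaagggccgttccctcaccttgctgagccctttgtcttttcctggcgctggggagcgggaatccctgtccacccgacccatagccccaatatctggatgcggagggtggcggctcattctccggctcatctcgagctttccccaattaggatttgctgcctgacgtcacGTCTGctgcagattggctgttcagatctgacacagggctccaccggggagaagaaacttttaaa
Tgfb1, chr7:25686752-25687001, plus strand: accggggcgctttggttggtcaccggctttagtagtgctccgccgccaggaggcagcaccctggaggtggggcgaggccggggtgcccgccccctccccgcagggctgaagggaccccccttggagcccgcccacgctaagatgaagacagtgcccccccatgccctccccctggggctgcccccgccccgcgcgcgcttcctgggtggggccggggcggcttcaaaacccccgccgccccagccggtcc

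The CAGAC box occurred 1 time each in the Tgfbr2 promoter, in this Ltbp1 promoter and in the second Tgfbr1 promoter, 2 times in a further Ltbp1 promoter at chr17:75178531-75178780, and 2 times in the promoter of Tgfb2. It was not found in the windows of Smad6, Smad3 or Tgfb1. Of 32851 mouse promoters of the same length, 42.2% hold this box on either strand. The GC-rich SMAD motif GGCGCC was found in the first Tgfbr1 promoter only among the windows of the 7 member genes scanned, against 9.59% of all promoters. The palindrome GTCTAGAC and the CArG box of smooth muscle genes were found in none of these windows (0.167% and 1.47% of all promoters). Smad7, on chromosome 18, was left out of the scan, and Tgfb3 and Tgfbr3 had no promoter entry. G and C made up 75.2% of the Tgfb1 window, 66.8% of the Smad6 window, 58.4% of the Tgfbr2 window and 56.8% of the Ltbp1 window, against a median of 52.4% over all promoters. Smad6, Smad3 and Tgfbr2 all lie on chromosome 9, and Smad3 and Smad6 are near neighbours with 6 annotated genes and 0 protein-coding genes between them.

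Some arrays stood apart from the rest, and the members moved with them. The first principal component over all probe sets, called the leading axis here and given in standard deviations, held 27.7% of the variance. On it 15 arrays of 14 strains lay between -4.00 and -2.26, below the next array at -1.83. Both BTBR T<+> tf/J arrays, C57BL/6J replicate 2 and C57L/J replicate 1 were among them, and BTBR T<+> tf/J was the only strain with every array there. In these 15 arrays Tgfb1 lay at 6.84 to 8.83 on the log2 scale and Tgfbr1 (1420895_at) at 3.68 to 6.11, against 5.11 to 7.70 and 5.86 to 7.77 in the other 173. Smad6 lay at 6.25 to 7.63 in the arrays apart and at 4.26 to 7.51 in the other arrays. Over all arrays the axis correlated with Tgfbr1 at r = 0.88, with Tgfb1 at -0.78, with Smad6 at -0.70 and with Smad7 at -0.58. Its correlation was 0.41 with the difference between the 3′ and 5′ probe sets of beta-actin, a measure of RNA quality. With the same difference for Gapdh it was 0.03. The sign of the axis was set to make the actin correlation positive, so low values went with a smaller actin difference. On a score of thymocyte or squamous epithelium genes, markers of tissues beside the aorta, 70 arrays were above 1 (called adjacent-tissue arrays here). Results of the members below are given with and without both sets of arrays where this changes a call.

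The labelled tissue was checked against marker genes. Of 13 smooth muscle markers 11 were measured, with a mean level of 8.50 on the log2 scale, and smooth muscle actin Acta2 averaged 12.42. All 11 endothelial markers were measured (mean 7.39), as were 7 of 8 adventitial fibroblast markers (mean 7.74). Markers of brown adipocytes (mean 10.995), cardiac muscle (9.32) and erythroid cells (8.63) had higher means than the smooth muscle markers. Those of adipocytes (7.96) and skeletal muscle (7.70) also gave signal, so the RNA held more than the vessel wall.

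Between strains, 6 of the 14 member probe sets differed, which belonged to Tgfbr2 (a pair of probe sets), Tgfb3, Smad6, Ltbp1 and Tgfb1. The test was limma's moderated F test over the arrays of the 84 strains with 2 or more arrays, with Benjamini-Hochberg adjustment over all probe sets and a threshold of 0.05. By the same test 46.5% of all probe sets were called, so the members differed between strains about as often as the rest of the array. The intraclass correlation (ICC), the share of variance that lies between strains, had a median of 0.174 over the members and of 0.182 over all probe sets. The probe sets of Tgfbr1, Tgfbr3, Smad3 and Smad7 were not called.

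**Figure D1:**
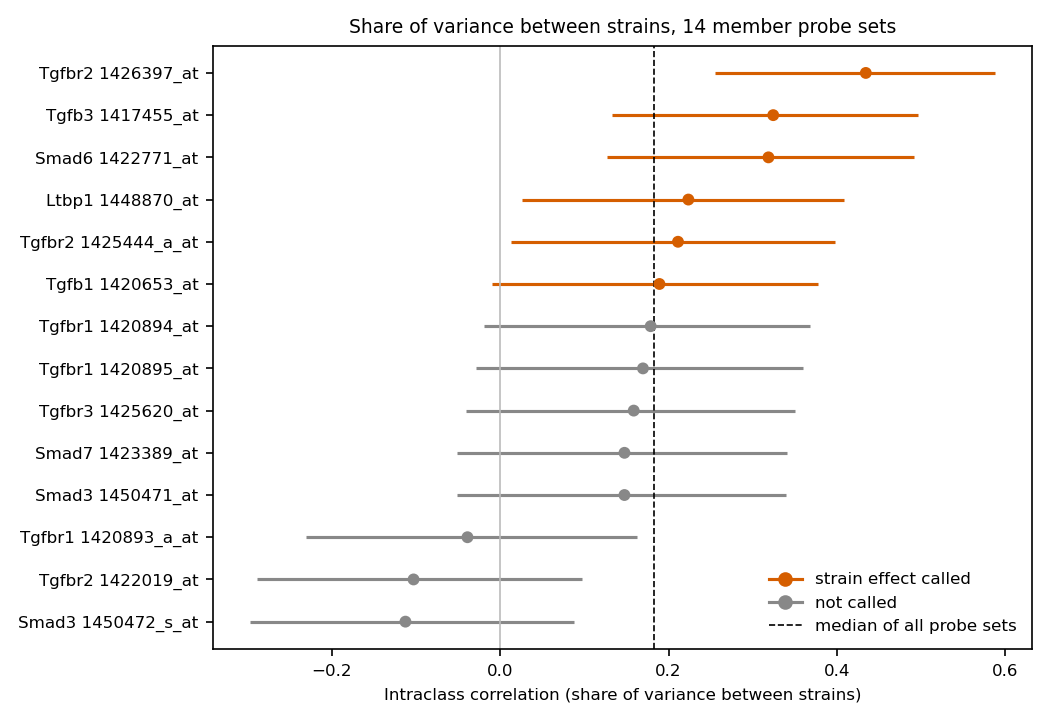
Intraclass correlation (x axis, share of variance between strains) of each of the 14 member probe sets (y axis), with its 95% interval. Orange marks the 6 probe sets with a called strain effect, grey the other 8, and the dashed line the median of all probe sets, 0.182; Tgfbr2 1426397_at lies farthest to the right at 0.434.

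Among the ligands, Tgfb3 had the clearest strain effect. Its strain means had a median of 6.99 on the log2 scale. The lowest strain was RIIIS/J, with 5.43 and 4.95 in its 2 arrays, followed by AXB19a/PgnJ with 6.34 and 5.53 and BXH22/KccJ with 6.42 and 5.82. The highest was AKR/J, with 7.93 and 8.11, followed by BXH2/TyJ with 8.18 and 7.70. The ICC was 0.324 (95% interval 0.133 to 0.496) and the adjusted p 0.00205 (limma), and the call held when any 1 strain was left out (adjusted p up to 0.0291, without RIIIS/J). The lowest and highest strains did not overlap. They were picked as the ends of the order, so this is no test of a difference. No strain differed from its neighbour in the order by more than 0.88, which the spread within strains allows for a pair of 2-array means. The widest gap, 0.74, separated RIIIS/J from AXB19a/PgnJ. Every other member probe set, called or not, likewise had no neighbours farther apart than its spread allows. Neighbours in a sorted order lie close by construction, so these gaps do not test whether strains differ. Both RIIIS/J arrays were high on the thymocyte score, at 4.90 and 5.14 where the median array had -0.79, and low on the smooth muscle score, at -0.93 and -1.46. Tgfb3 was still called with the thymocyte, squamous and skeletal muscle scores as covariates (adjusted p = 0.00299, limma), with the smooth muscle score (6.27e-05) and without the adjacent-tissue arrays (0.0464). In bulk tissue, fewer cells of a type and less RNA per cell cannot be told apart.

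Tgfb1, the ligand made by many cell types including leukocytes, had a called strain effect only just inside the threshold. Its strain means had a median of 6.19. The lowest strains were BXA26/PgnJ, with 6.01 and 5.11, and CE/J, with 5.58 and 5.54. The highest were BTBR T<+> tf/J, with 7.87 and 7.56, and C57L/J, with 8.83 and 6.21, and both BTBR T<+> tf/J arrays and the higher C57L/J array stood apart on the leading axis. The ICC was 0.189 (-0.00905 to 0.378) and the adjusted p 0.0497 (limma); the call was lost when any of 54 of the 84 strains was left out. Without the arrays that stood apart the ICC was 0.344 and the adjusted p 0.00156, and the strain range was 5.28 in AXB2/PgnJ, of which 1 array was left, to 7.24 in BXD2/TyJ, median 6.13. BXD2/TyJ had 7.70 and 6.78, and its higher array lay at -1.62 on the leading axis. With the actin 3′ minus 5′ difference as a covariate the adjusted p was 0.302. Its side of the threshold thus moved with the arrays and covariates used.

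Ltbp1, the latent TGF-beta binding protein gene, had the widest range of the members. AXB19a/PgnJ had 5.32 and 5.19 and BXH22/KccJ 5.54 and 5.03, and the strain median was 6.97. BXD28/TyJ had 8.12 and 8.11, AKR/J 7.94 and 8.55, and BXD18/TyJ, with a single array, 8.27. The arrays of the 2 low strains lay below those of these high strains without overlap, but the strains were picked as the ends of the order. The ICC was 0.224 (0.0262 to 0.408) and the adjusted p 0.0251 (limma), and the call was lost without AXB19a/PgnJ (adjusted p = 0.0810) or BXH22/KccJ. It was also lost without the adjacent-tissue arrays, with an adjusted p of 0.524. A/J showed how far arrays of a strain could differ, with 5.10 and 7.75.

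Among the receptors, Tgfbr2 had the strongest strain effect of all members. For 1426397_at, its brightest probe set, the lowest strains were RIIIS/J, with 8.55 and 8.42, and BXA11/PgnJ, with 8.57 and 8.52. The highest were C58/J, with 9.75 and 9.62, AXB2/PgnJ, with 9.55 and 9.47, and BXD8/TyJ, with 9.49 and 9.53, around a strain median of 8.97. The arrays of each of these strains lay close together. Low and high strains, picked as the ends of the order, did not overlap. The ICC was 0.434 (0.255 to 0.587) and the adjusted p 5.33e-05 (limma), and the call held when any 1 strain was left out. Without the adjacent-tissue arrays the adjusted p was 0.0980, and without the arrays that stood apart it was 5.35e-05.

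The other probe sets of Tgfbr2 gave a mixed picture. 1425444_a_at had its lowest values in AXB8/PgnJ, with 4.0 and 4.06, and its highest in BXA16/PgnJ, with 5.77, 6.17 and 5.37. Its ICC was 0.211 and its adjusted p 0.0330 (limma), and the call was lost without either AXB8/PgnJ or BXA16/PgnJ. It was also lost without the adjacent-tissue arrays (adjusted p = 0.179), with a term for array number block (0.145), with arrays centred on their medians (0.0541) and with strains of consecutive array numbers alone (0.178). Its strain means followed those of 1426397_at at r = 0.61 (93 strain means). 1422019_at, with a mean of 3.20 on the log2 scale, had an ICC of -0.103 and followed neither of them (r = -0.24 and -0.17).

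Tgfbr1, the type I receptor gene, was not called with all arrays, but its brightest probe set was called without those that stood apart and also without the adjacent-tissue arrays. For 1420895_at the lowest strain means were BTBR T<+> tf/J, with 5.03 and 5.38, and AXB23/PgnJ, with 6.79 and 3.68, and the highest was RIIIS/J, with 7.68 and 7.77. The low arrays of both strains stood apart on the leading axis. The adjusted p was 0.0705 (limma, ICC 0.170) with all arrays and 0.000450 (ICC 0.386) without the arrays that stood apart, where strain means ran between 6.20 in BXA16/PgnJ and 7.73 in RIIIS/J. The BXA16/PgnJ arrays kept there lay at -0.84 and -1.16 on the leading axis. Without the adjacent-tissue arrays the adjusted p was 0.0157. The 2 dimmer probe sets, 1420893_a_at (mean 3.45) and 1420894_at (mean 3.09), were not called in either setting.

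Tgfbr3, the betaglycan gene, had strain means between 5.06 in BXD33/TyJ (4.70 and 5.43) and 6.87 in AXB1/PgnJ (6.57 and 7.16). Its ICC was 0.159 and its adjusted p 0.0901 (limma), and it was called without the arrays that stood apart (adjusted p = 0.0361). RIIIS/J was again low, with 5.17 and 5.21, and C3H/HeJ high, with 6.53 and 6.68.

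Smad3, which carries the signal to the nucleus, was close to the low end of the array's scale. Its probe sets averaged 3.82 (1450472_s_at) and 3.33 (1450471_at), below the median probe set at 4.77. Their ICCs were -0.112 and 0.148 and their adjusted p-values 0.905 and 0.154 (limma). With arrays centred on their medians 1450471_at was called (adjusted p = 0.0363). At such low signal a strain difference may not be detectable, and the 2 probe sets followed each other only at r = 0.22 over strain means.

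Of the inhibitors, Smad6 was called. It had its lowest values in RIIIS/J, with 4.58 and 4.45, and AXB19/PgnJ, with 4.36 and 5.01, and its highest in BXH2/TyJ, with 7.62 and 6.22, and AXB6/PgnJ, with 6.04 and 7.63, around a strain median of 5.67. The low and high strains, picked as the ends of the order, did not overlap. In both high strains 1 array stood apart on the leading axis and was the higher of the pair. The ICC was 0.319 (0.127 to 0.491) and the adjusted p 0.00236 (limma), and the call held when any 1 strain was left out. Without the arrays that stood apart the adjusted p was 6.08e-05 and the highest strain was BXD22/TyJ at 6.71. BXD22/TyJ had 5.92 and 7.51, and its higher array lay at -1.83 on the leading axis, next to those left out. Without the adjacent-tissue arrays the adjusted p was 0.0645.

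Smad7 ran between 4.43 in BXH22/KccJ (4.32 and 4.55) and 5.89 in KK/HlJ (5.67 and 6.11), with an ICC of 0.148 and an adjusted p of 0.109 (limma). Without the arrays that stood apart its ICC was -0.00430, so that its arrays then differed as much within strains as between them. Whether Smad6 and Smad7 differ in their strain effect was not tested.

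**Figure D2:**
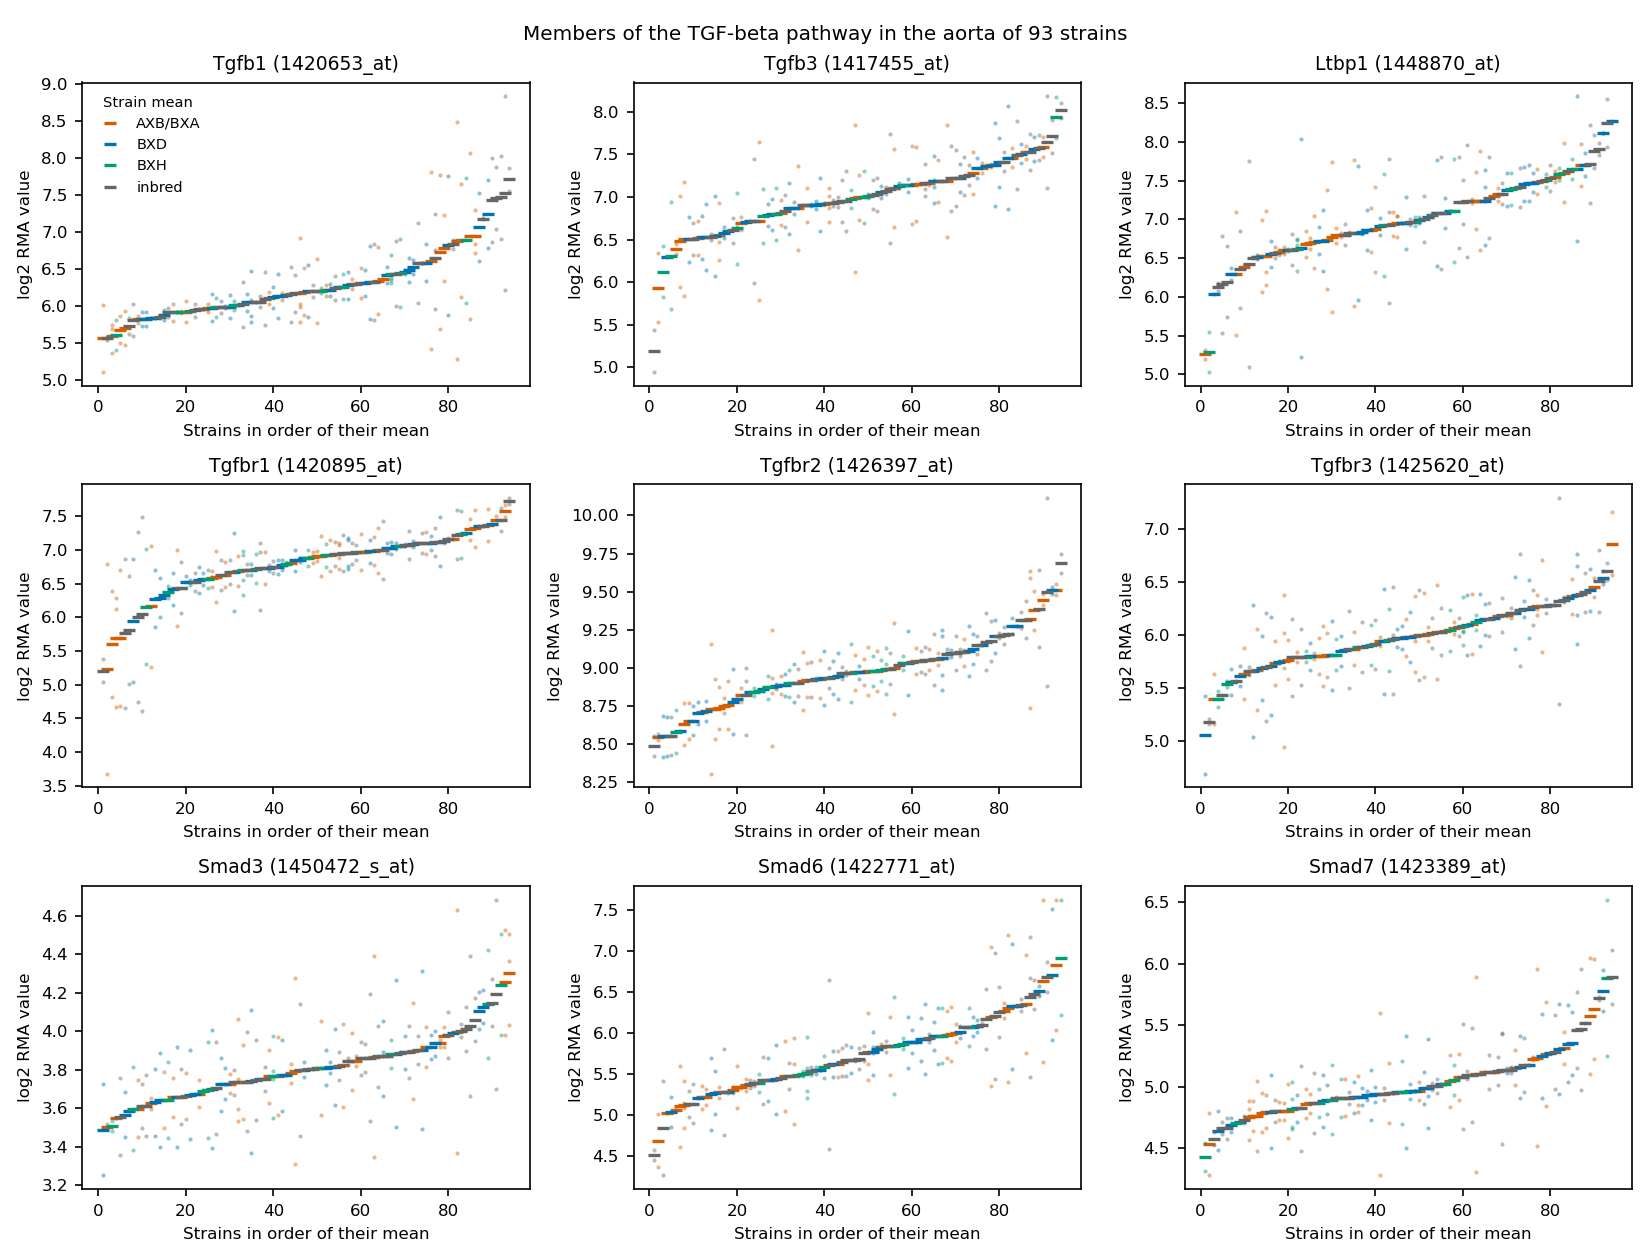
Log2 RMA value (y axis) of the brightest probe set of each member gene in 94 strains, ordered by their mean (x axis, rank). BXD32/TyJ is drawn, although the title counts 93 strains. Bars are strain means coloured by family and points are single arrays; Tgfb3 has a single low strain at 5.19 (RIIIS/J), and Tgfb1 a tail of high strains up to 7.71.

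A few strains recurred at the ends of these orders. Of the 9 genes, each by its brightest probe set, RIIIS/J had the lowest mean for 3 (Tgfb3, Tgfbr2 and Smad6), the highest for Tgfbr1, and was among the 5 lowest strains for 5. BXH22/KccJ was among the 5 lowest for 4, and BXH2/TyJ and KK/HlJ among the 5 highest for 4 each. RIIIS/J had the highest strain mean of the thymocyte score (5.02). Its strain means of the endothelial (-1.21), adventitial fibroblast (-1.13) and adipocyte (-1.09) scores were the lowest. BXH22/KccJ had the array with the lowest smooth muscle score (-1.75) and BXH2/TyJ the array with the highest (1.11). BXH2/TyJ replicate 1 and KK/HlJ replicate 1 stood apart on the leading axis.

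The parents of the recombinant inbred families were compared to ask whether the founders already differ in the pathway. No member probe set was called in any of these contrasts, which share the 3 C57BL/6J arrays (limma, fit of all strains, 2 arrays of each other parent). For A/J over C57BL/6J 0 of 14 were called and 0.645% of all probe sets, with 2 members and 1991 probe sets in all at an unadjusted p below 0.05. For DBA/2J over C57BL/6J 0 were called and 0.524% of all, with 0 members and 1048 probe sets below 0.05. For C3H/HeJ over C57BL/6J 0 were called and 1.25% of all, with 0 members and 2906 probe sets below 0.05.

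The largest member difference was in Smad6. It had 5.33 and 5.43 in A/J, against 6.67, 7.18 and 5.47 in C57BL/6J. The array at 7.18 was the C57BL/6J array that stood apart. The log2 difference was -1.06 ± 0.45 (SE), with an unadjusted p of 0.0217 and an adjusted p of 0.461 (limma). In the other parents Smad6 had 6.53 and 5.80 (DBA/2J) and 5.85 and 5.66 (C3H/HeJ).

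Smad3 1450471_at had 3.11 and 3.19 in A/J, against 3.75, 3.42 and 3.59 in C57BL/6J, a log2 difference of -0.44 ± 0.15 (SE; adjusted p = 0.266, limma). Tgfbr2 1426397_at had 9.23 and 9.19 in C3H/HeJ and 9.09 and 9.21 in DBA/2J, against 8.91, 8.56 and 9.0 in C57BL/6J. The differences were 0.39 ± 0.20 (adjusted p = 0.385) and 0.33 ± 0.20 (adjusted p = 1.00). Tgfbr3 had 6.53 and 6.68 in C3H/HeJ, against 6.00, 5.45 and 6.46 in C57BL/6J, a difference of 0.63 ± 0.34 (adjusted p = 0.418). Over the 14 probe sets the log2 differences lay between -1.06 and 0.31 for A/J, between -0.27 and 0.48 for DBA/2J and between -0.68 and 0.63 for C3H/HeJ.

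**Figure D3:**
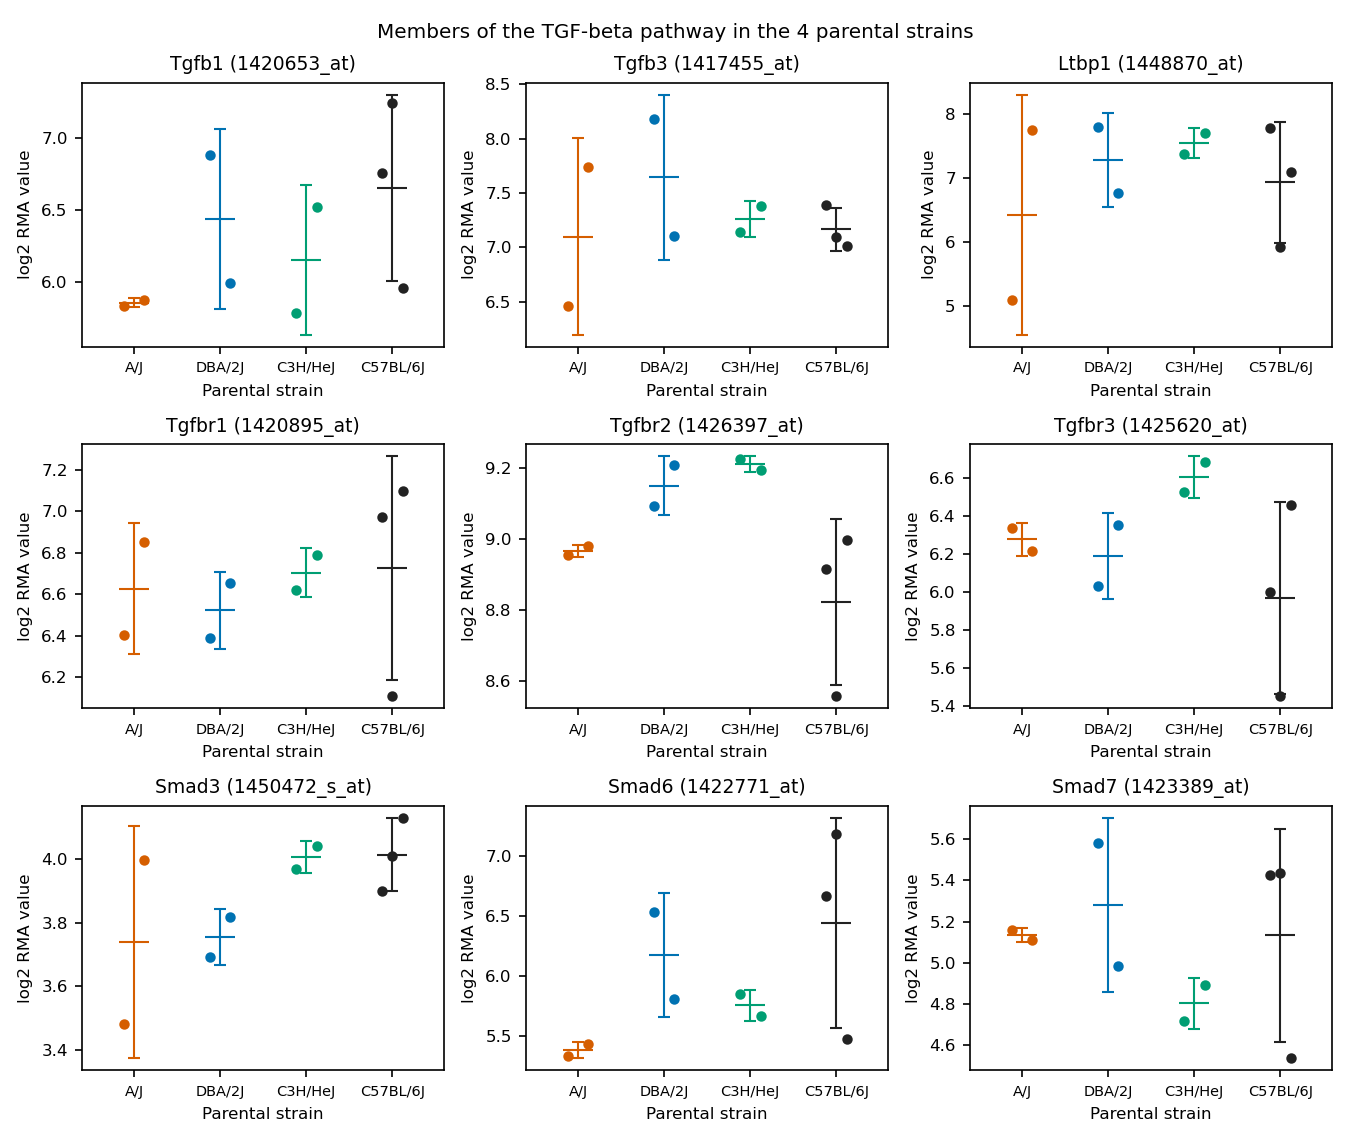
Log2 RMA value (y axis) of the brightest probe set of each member gene in the parents, from left A/J, DBA/2J, C3H/HeJ and C57BL/6J, with 3 arrays for C57BL/6J and 2 for each other. Points are arrays, bars the mean and its SD; the C57BL/6J arrays of Smad6 spread between 5.47 and 7.18.

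Inside the families, with all arrays, only the BXD strains gave a called member. Among the BXD strains (22 with 2 or more arrays), 1 of 14 member probe sets was called, against 15.1% of all probe sets. At an unadjusted p below 0.05 there were 5 members and 7431 probe sets in all. The called probe set was Tgfbr2 1426397_at, with an ICC of 0.583 and an adjusted p of 0.0144 (limma). Its lowest BXD strain was BXD15/TyJ, with 8.41 and 8.68, and its highest BXD8/TyJ, with 9.49 and 9.53, which exceeded both DBA/2J and C57BL/6J. Of 27 BXD strain means 5 lay above both parental means, 8 below both and 14 between them. The call was lost without BXD8/TyJ (adjusted p = 0.0661) and without the adjacent-tissue arrays (0.168). Tgfb1 (adjusted p = 0.0559), Tgfbr2 1425444_a_at (0.0599), Smad6 (0.0857) and Tgfb3 (0.141) did not pass in BXD.

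Among the AXB/BXA strains 0 of 14 were called, against 3.81% of all probe sets, with 2 members and 3907 probe sets at an unadjusted p below 0.05. Without the arrays that stood apart, 2 were called, Smad6 (adjusted p = 0.0298) and Tgfbr1 1420895_at (0.0350), against 13.9% of all. Among the BXH strains 0 of 14 were called, against 1.26% of all, with 4 members and 2771 probe sets below 0.05. Ltbp1 came nearest, with an ICC of 0.677 and an adjusted p of 0.0728 (limma), and was called when BXH19/TyJ (0.0223) or BXH9/TyJ (0.0145) was left out, while without BXH22/KccJ the adjusted p was 0.551. BXH22/KccJ had 5.54 and 5.03, while the other BXH strain means lay between 6.62 and 7.64.

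The family averages were close to each other. On strain means, 0 of 14 member probe sets were called for AXB/BXA over BXD (2.22% of all), for AXB/BXA over BXH (0.322%) or for BXD over BXH (0.184%). At an unadjusted p below 0.05 there were 1, 0 and 0 members, and 3017, 1625 and 1163 probe sets in all. The log2 differences of the members lay between -0.19 and 0.19, between -0.17 and 0.18, and between -0.04 and 0.13. Ltbp1 averaged 6.87 ± 0.49 in AXB/BXA strains (SD, n = 28) and 7.07 ± 0.51 in BXD strains (n = 27), a difference of -0.19 (95% interval -0.48 to 0.09, adjusted p = 0.608, limma). The widest 95% interval of a member in these contrasts was that of Ltbp1 for BXD over BXH, -0.36 to 0.41.

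Members were then set against each other over the 93 strain means. These correlations are descriptions, since recombinant inbred strains share parents and each point shares its arrays. Smad6 and Smad7, both inhibitors, followed each other most closely (r = 0.67, rho = 0.61, 0.64 without the 2 strains farthest out). The relation was 0.68 in AXB/BXA, 0.61 in BXD, 0.79 in BXH and 0.72 in the other inbred strains. In BXH it rested on the 2 strains farthest out, with 0.081 without them. It was 0.51 without the arrays that stood apart. Tgfb3 and Ltbp1, a ligand and a latency protein, followed at r = 0.63 (rho = 0.57), at 0.72 without the arrays that stood apart, and at 0.54 to 0.73 within the families and the other inbred strains. Tgfb3 and Smad6 followed at 0.51.

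Tgfb1 and Tgfbr1 ran against each other at r = -0.56 (rho = -0.41), which rested on the arrays that stood apart: without them it was -0.05, and it was 0.32 after the leading axis had been fitted. The relation of Tgfbr1 and Smad6 likewise was -0.50 with all arrays and -0.24 without them. Of the receptors, Tgfbr2 and Tgfbr3 followed at 0.44, while Tgfbr1 and Tgfbr2 followed at 0.15.

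**Figure D4:**
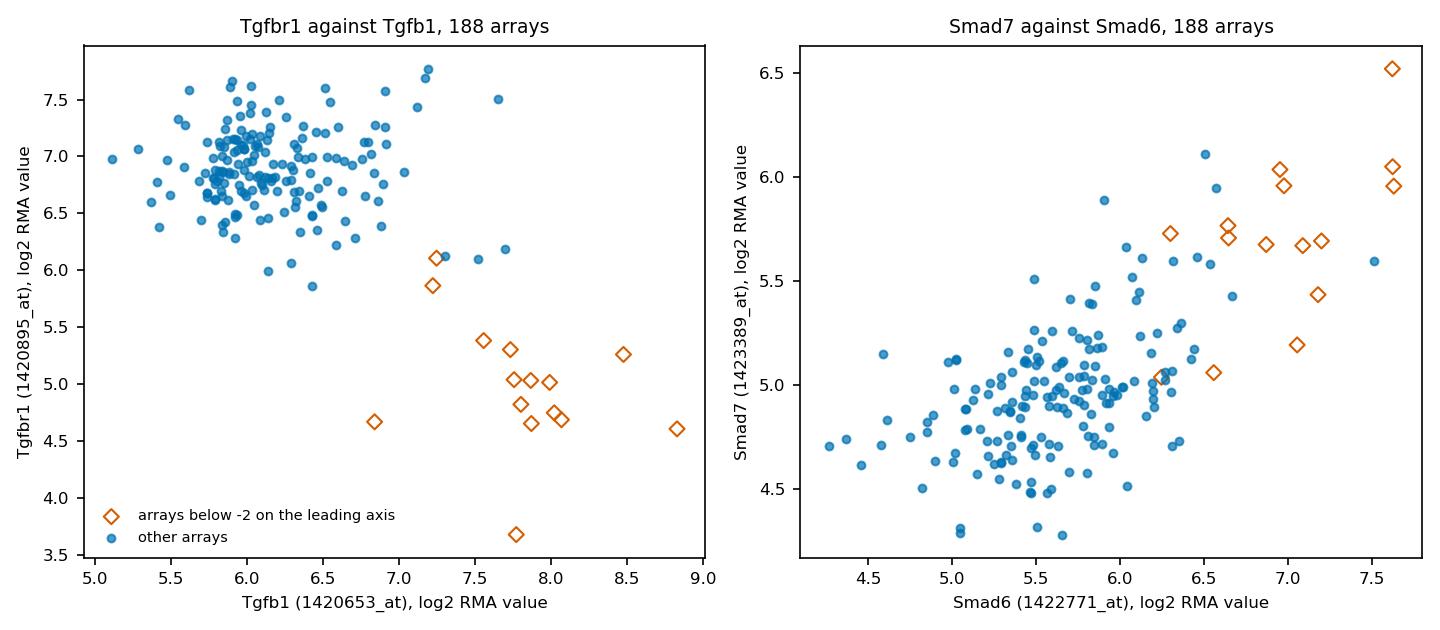
Log2 RMA values of Tgfbr1 against Tgfb1 (left) and of Smad7 against Smad6 (right), 1 point per array. Open diamonds are the 15 arrays below -2 on the leading axis, which lie at 6.84 or more in Tgfb1 and at 6.11 or less in Tgfbr1; filled points are the other 173.

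Several members moved with cell type scores, each score being the mean of the centred log2 values of a marker list. Over strain means, Tgfb3 followed the smooth muscle (r = 0.74), adventitial fibroblast (0.68) and endothelial (0.57) scores, and ran against the thymocyte score at -0.48. Ltbp1 followed the smooth muscle score at 0.70, or 0.81 without the arrays that stood apart. After the smooth muscle score had been fitted, the correlation of Tgfb3 with Ltbp1 was 0.23, and that of Tgfb3 with Smad6 was 0.25. Smad6 followed the adipocyte (0.57), endothelial (0.55) and smooth muscle (0.50) scores, and Smad7 the smooth muscle score (0.52). Tgfb1 followed the macrophage score at 0.50 and the thymocyte score at 0.48. Tgfbr2 followed the macrophage score at 0.49 and ran against the brown adipocyte score at -0.43, and Tgfbr3 followed the fibroblast score at 0.52. Tgfbr1 ran against the adipocyte (-0.55), Schwann cell (-0.54), erythroid (-0.43) and endothelial (-0.43) scores. In the same order these were -0.42, -0.47, -0.23 and -0.42 without the arrays that stood apart. Smad3 followed no tissue score beyond 0.36 in size. With the smooth muscle score as a covariate of the strain test, all 6 called probe sets still passed, with adjusted p-values of 6.27e-05 for Tgfb3, 0.00459 for Ltbp1 and 0.0136 for Smad6 (limma). With the thymocyte, squamous and skeletal muscle scores as covariates the 6 also passed, with 0.0471 for Ltbp1. The part of the other scores in the strain effects was not tested.

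**Figure D5:**
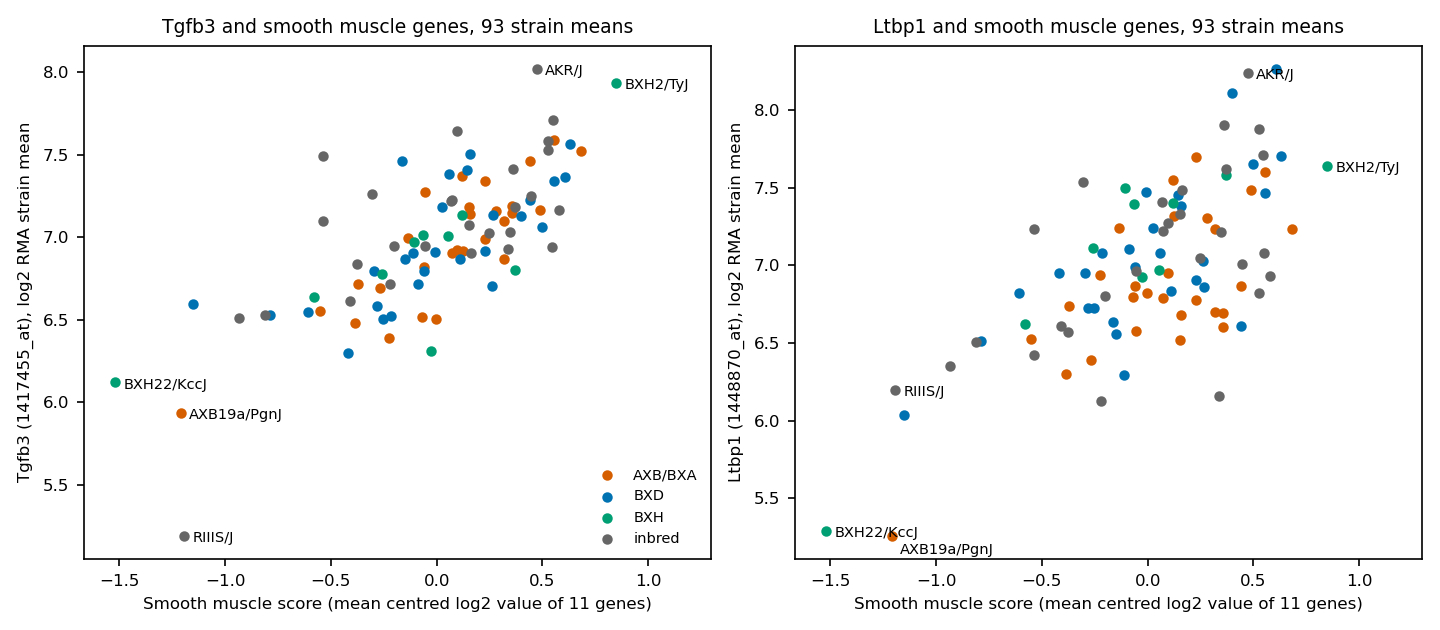
Strain means (log2 RMA) of Tgfb3 (left) and Ltbp1 (right) against the smooth muscle score (x axis, mean centred log2 value of 11 genes), 94 strains coloured by family. BXD32/TyJ is drawn, although the titles count 93 strain means. RIIIS/J lies lowest for Tgfb3, at 5.19, and AXB19a/PgnJ and BXH22/KccJ lie lowest for Ltbp1.

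The genes whose strain means were most like each member's, by Pearson r over 93 strain means, differed by member. For Tgfb3 they were the laminin chain Lamb2 (0.84), biglycan Bgn (0.79) and fibulin 5 Fbln5 (0.78), and for Ltbp1 the type IV collagen chain Col4a5 (0.85), caldesmon Cald1 (0.81) and smooth muscle myosin Myh11 (0.80). For Tgfbr2 they were the ornithine aminotransferase Oat, apolipoprotein D Apod and the kinase Dapk1 (0.66 each), and for Tgfbr3 Scara5 (0.65), Gnpnat1 (0.64) and decorin Dcn (0.63). Without the arrays that stood apart they were 0.78 to 0.86 for Tgfb3, 0.82 to 0.85 for Ltbp1, 0.66 for Tgfbr2 and 0.62 to 0.66 for Tgfbr3. For Smad6 they were Fads3 (0.76), Hic1 (0.75) and Kctd17 (0.74), and for Smad7 the transcription factor Foxc2 (0.70), follistatin-like Fstl3 (0.68) and Trim47 (0.68). These correlations were 0.64 to 0.69 for Smad6 and 0.54 to 0.59 for Smad7 without the arrays that stood apart. For Tgfb1 they were the small GTPase Rhog (0.92), Atp13a2 (0.89) and the immunoproteasome subunit Psmb10 (0.89), and for Tgfbr1 the kinase Rock1, Stxbp3 and the kinase Csnk1a1 (0.90 each). Without the arrays that stood apart those of Tgfb1 were 0.79 to 0.85 and those of Tgfbr1 0.71 to 0.76. For Smad3 they were Mif, Ddb1 and Eif6 (0.56 to 0.57), and 0.33 to 0.38 without these arrays.

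The other genes of the pathway were taken each by its brightest probe set. Of 61 measured, 42 differed between strains (68.9%), against 5 of the 9 members (55.6%) and 48.8% of all 11725 named genes, and their median ICC was 0.285. Without the adjacent-tissue arrays 31 were called, against 31.1% of all probe sets. It was 47 without the arrays that stood apart, against 52.7% of all probe sets. The share called depended on signal level: of 11164 probe sets at or above the median level, 7810 were called, with a median ICC of 0.253. The pathway genes were not compared with genes of like level. For single pathway genes, the calls and strain ranges below are given only with the adjacent-tissue arrays and those that stood apart kept in. RIIIS/J, at an end of many of these ranges, had the highest strain mean of the thymocyte score (5.02).

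Of the textbook targets 14 of 15 were called, with a median ICC of 0.372. Klf10, an early TGF-beta response gene, lay between 5.10 in AXB1/PgnJ and 7.73 in RIIIS/J (ICC 0.637), and elastin Eln between 7.77 in BXH22/KccJ and 10.65 in BXH2/TyJ (ICC 0.372). Junb, with an adjusted p of 0.168, was the target that was not called. Of the other ligands and antagonists 5 of 9 were called. Follistatin Fst, which binds activins, lay between 4.39 in RIIIS/J and 8.68 in AXB1/PgnJ (ICC 0.812), and Bmp4 between 4.75 in RIIIS/J and 7.43 in AKR/J. Bmp2 and Grem1 were not called.

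Of the latency and activation genes 7 of 12 were called. The protease Mmp2 lay between 7.22 in RIIIS/J and 9.27 in CBA/J (ICC 0.516), and the integrin subunit Itgb5 ran up to 8.63 in BTBR T<+> tf/J, with RIIIS/J lowest at 6.04. Itgav and Itgb6, subunits of integrins that activate latent TGF-beta, were not called. Of the other receptors 6 of 10 were called, with Bmpr2 between 3.10 in RIIIS/J and 7.48 in CE/J (ICC 0.655) and the endothelial type I receptor Acvrl1 between 5.26 in RIIIS/J and 7.78 in BALB/cJ. Of the other SMADs 2 of 5 were called, the bone morphogenetic protein transducer Smad1 and the common mediator Smad4 (adjusted p = 0.00507), while Smad2 (0.165) and Smad5 (0.757) were not. Of the intracellular regulators 8 of 10 were called, with Skil between 7.31 in BTBR T<+> tf/J and 9.61 in AXB5/PgnJ and the deubiquitinase Usp15 between 4.46 in KK/HlJ and 7.52 in AXB5/PgnJ, while Ppm1a and Strap were not. Of 16 genes of inherited aortic disease outside the members, some of them also on these lists, 12 were called, with Mfap5 between 6.61 in RIIIS/J and 9.24 in DBA/2J, while Smad2 and Slc2a10 were not.

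Between parents, 4 of these other pathway genes were called, and they are named here after their values were seen. Fst was higher in A/J than in C57BL/6J by 1.99 on the log2 scale (adjusted p = 0.00293, limma) and Klf10 by 1.55 (adjusted p = 0.0182). Dab2, an adaptor protein of receptor signalling, was higher in C3H/HeJ than in C57BL/6J by 1.41 (adjusted p = 0.0289), and the cell cycle inhibitor Cdkn1a had a log2 difference of -1.31 (adjusted p = 0.0487). None was called in DBA/2J.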

How the data were processed

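Aorta RNA was measured on 1-colour Affymetrix arrays. The deposited table holds log2 values that the authors made with GCOS and RMA, per the submitters' processing notes; no version or build of these steps is given. No depth applies to arrays, so the number of arrays limits the precision. Of 22416 probe sets 89 controls were left out. Probe sets were named from the platform annotation: 17783 had 1 symbol, 284 several and 4260 none listed. Tests used limma 3.58.1 in R 4.3.3, with Benjamini-Hochberg adjustment over 22327 probe sets and a threshold of 0.05, and the scripts were tested on simulated data. The 2 BXD32/TyJ arrays, whose descriptions carry an unexplained suffix, were left out of all tests. All members were named, with the 3 genes most alike by r, and from each pathway list 2 called genes and up to 2 not called. Members and lists were chosen with earlier results of these data known. Alternatives included covariates for cell type scores and array number blocks, centring, brighter probe sets and leaving out strains. Those on the leading axis, the actin difference, the smooth muscle score and the arrays that stood apart were chosen after seeing the data.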

Additional observations from a re-analysis of the deposited data

Results flagged for a closer look

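In 7 of 56 groups of 4 to 10 values an extreme value lay far from the rest, where chance gives about 1 in 20 for a single group. The groups are the member probe sets over the same few sets of arrays and strains. They are not independent, so their count is no measure of an excess. In the BXH strain means, BXH22/KccJ was low for Ltbp1 (5.29, next 6.62) and Tgfbr2 1426397_at (8.58, next 8.84). BXH2/TyJ was high for Smad6 (6.92, next 6.08) and Smad7 (5.88, next 5.05), and its replicate 1 stood apart on the leading axis. Among BXH4/TyJ arrays, replicate 4 was high for Tgfb1 (6.69, next 6.38) and replicate 2 low for Ltbp1 (6.33, next 6.67). Among BXD19/TyJ arrays, replicate 2 was low for Tgfbr2 1425444_a_at (4.50, next 4.98).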

How the results depend on the processing

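No paired analysis was possible because replicate numbers only name the arrays of a strain and are shared by no source. The count of member probe sets differing between strains was 3 without the adjacent-tissue arrays (31.1% of all probe sets): Tgfb1, Tgfb3 and, newly, Tgfbr1 1420895_at. It was also 3 with strains of consecutive array numbers (30.7%), in array number block 2 alone (13.9%) and in the inbred strains alone (24.6%). The highest count was 8, without the arrays that stood apart (52.7%), and it was 4 to 7 with 1 strain left out. In BXD it was 0 without the adjacent-tissue arrays (5.29% of all) and in block 1 (0.376%), 3 with bright probe sets (30.3%, 9 members tested), with the leading axis as a covariate (12.0%) and in block 2 (13.9%), and 0 to 3 with 1 strain left out; the block covariate could not be fitted there. In AXB/BXA it was 2 without the arrays that stood apart, and in BXH 0 to 1 with 1 strain left out. Parental and family contrasts gave 0 members in every setting run. Other pathway genes numbered 37 to 42 with 1 strain left out. Over all probe sets, the strain count of 10375 was 6852 with consecutive array numbers, 5759 with 1 probe set per gene, 6651 and 3107 in blocks 1 and 2 and 5484 in inbred strains. Without the adjacent-tissue arrays the counts were 230 in AXB/BXA (851 with all arrays), 1181 in BXD (3361), 162 in BXH (281), 171, 22 and 18 for AXB/BXA over BXD (495), AXB/BXA over BXH (72) and BXD over BXH (41), and 277, 187 and 615 for A/J (144), DBA/2J (117) and C3H/HeJ (278) over C57BL/6J. Without the arrays apart they were 3096 in AXB/BXA, 551 in BXH, and 1300, 151 and 82 for the family contrasts. With tissue scores as covariates they were 1390 in AXB/BXA, 492 in BXH, 228 for A/J and 498 for C3H/HeJ, and with the 4 parents alone 78, 65 and 152. BXD gave 1627 with BXD32/TyJ included and 84 in block 1, and BXD over BXH 19 with 2-array strains. Leaving out 1 parental array gave 53 to 272 for A/J, 54 or more for DBA/2J and 73 to 1123 for C3H/HeJ, the last without C57BL/6J replicate 3. Smad6 with Smad7 was 0.785 in BXH, 0.496 after the leading axis and 0.511 without the arrays apart. Tgfb3 with Ltbp1 was 0.228 after the smooth muscle score and 0.737 after the leading axis. Tgfb1 with Tgfbr1 was -0.393 in BXD, -0.288 in BXH, -0.719 in inbred strains, -0.690 after the other tissue scores, 0.322 after the leading axis and -0.0503 without the arrays apart. Tgfb3 with Smad6 was 0.292 in AXB/BXA, 0.747 in BXH, 0.681 in inbred strains and 0.247 after the smooth muscle score. Tgfbr1 with Smad6 was -0.668 in AXB/BXA, 0.0332 in BXD, 0.0380 after the leading axis and -0.237 without the arrays apart. The cause was not tested.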

Other observations

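The 2 BXD32/TyJ arrays, left out of the tests, had 7.76 and 5.88 for Tgfb1, 5.04 and 6.86 for Tgfbr1, 7.09 and 5.57 for Smad6 and 5.67 and 4.94 for Smad7 on the log2 scale. The first of them stood apart on the leading axis, at -3.23. For Tgfbr2 they had 8.89 and 8.86, for Tgfb3 7.38 and 7.06, and for Ltbp1 6.60 and 6.62.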
